A study of Mus musculus with 16 samples.

Results

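RNA-seq expression of 10 transcription factor genes, Erg, Fli1, Ets1, Ets2, Elk3, Sox7, Sox17, Sox18, Gata2 and Tal1, was examined in mouse pulmonary endothelial cells (ECs). They were chosen by gene symbol as ETS, SOX and GATA factors of the endothelium with TAL1, with earlier results of these data known. All 10 were found among the 54532 genes listed per table. In the first experiment, male WT C57/BL6J mice of 8 weeks received saline (n = 4) or 10 mg/kg LPS (n = 6), the bacterial lipopolysaccharide that injures the lung, into the trachea. In the second experiment, both groups received 2 mg/kg LPS. They were Fgfr1 loxP/loxP mice (n = 3) and Fgfr1 iΔEC/iΔEC mice (n = 3), in which VE-cadherin-CreERT2 deletes the floxed FGF receptor gene after tamoxifen. The study's methods have tamoxifen given to both genotypes, and Cre is described in the mutants alone, so Cre and the deletion cannot be told apart. These mice were adults, and their age in weeks was not given in the sources used here. ECs were taken after 24 h by magnetic bead sorting of lung cells for CD31 and against CD45. Values are deposited as FPKM, fragments scaled by gene length and by a factor per library, so levels of different genes are compared per length. Each experiment was normalized on its own and compared within itself, since dose and genotype differ between them. Reads on genes ranged from 13478726 to 18807007 in the saline, 17840221 to 19043015 in the LPS, 15969575 to 17002788 in the loxP/loxP and 16642177 to 16943522 in the iΔEC/iΔEC libraries.

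ETS factors bind DNA through a domain that reads a GGAA core. ERG and FLI1 are close relatives that keep endothelial genes such as VE-cadherin on, ETS1 and ETS2 act downstream of MAP kinase signaling, and ELK3 is an ETS factor of the ternary complex subfamily that can repress its targets. SOX7, SOX17 and SOX18 form the SOXF subfamily, known in ECs for arterial and lymphatic differentiation, with SOX17 tied to arteries and SOX18 to lymphatic specification. GATA2 binds GATA motifs in endothelial and blood stem cells, and TAL1 is a basic helix-loop-helix factor that joins GATA proteins through LMO2 and LDB1 at blood and endothelial enhancers.

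The libraries carried the markers of ECs, and of other cells as well. In saline libraries Cdh5, the VE-cadherin gene, had 710 ± 56.0 FPKM (SD, n = 4) and Pecam1, which encodes CD31, had 400.0 ± 81.5 FPKM (SD, n = 4). Sftpc, a surfactant gene of alveolar type II epithelium, had 1316 ± 550.0 FPKM (SD, n = 4) in the same libraries. Ptprc, which encodes the CD45 used to deplete leukocytes, had 6.97 ± 3.13 FPKM (SD, n = 4) in saline and 34.6 ± 11.4 FPKM (SD, n = 6) in LPS. Some libraries stood apart. Saline 1 was the lowest saline library in 7 of the 10 factor genes and the highest in the other 3, Fli1, Ets2 and Gata2, while its summed level of 10 endothelial markers, 3284 FPKM, lay within the 3256 to 3702 FPKM of the saline group. Its neutrophil list summed to 1374 FPKM while the other 3 had 68.3 to 301.0 FPKM, and its epithelial list to 2774 FPKM against 1083 to 2092 FPKM. LPS 1 was the lowest LPS library in 8 of the 10 factor genes and also had the lowest endothelial sum, 1326 FPKM against 2145 to 2904 FPKM in the other 5. LPS 6 was the highest in 9 of the 10, with the highest endothelial sum, 2904 FPKM, and the lowest leukocyte sum, 1009 FPKM.

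Most of these endothelial factors were lower after LPS. With the threshold at 0.05 for p adjusted by the Benjamini-Hochberg method over 14893 genes (limma), 7 of 10 fell, Erg, Ets1, Ets2, Elk3, Sox7, Gata2 and Tal1, against 23.7% of all genes tested. None of the 10 rose, against 29.5% of all genes. Their median log2 fold change was -0.70 and that of all genes was 0.01. Only Ets1 and Sox7 also passed a log2 fold change of -1, which 6.79% of all genes did. In 4 of the 10, Erg, Ets1, Elk3 and Tal1, every LPS library lay below every saline library, as in 16.7% of all genes. Complete separation in the upward direction was seen for 0 of 10, against 22.7% of all genes. All 10 are well expressed, with at least 470 reads in every library of this experiment, and among the 4377 genes that averaged 12.3 FPKM or more, 15.7% fell and 49.6% rose. Without saline 1 the number that fell was again 7, with Sox18 in and Ets2 out. Scaled instead on 10 endothelial markers, 1 of the 10 fell (Ets1) and 1 rose (Fli1), against 7.01% and 43.2% of all genes. A lower level in these bulk samples can come from fewer ECs in the preparation or from less RNA per EC, and these cannot be told apart. The libraries are labelled by group and number and were treated as separate samples. The p-values set the difference between group means against the spread between libraries.

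**Figure D1:**
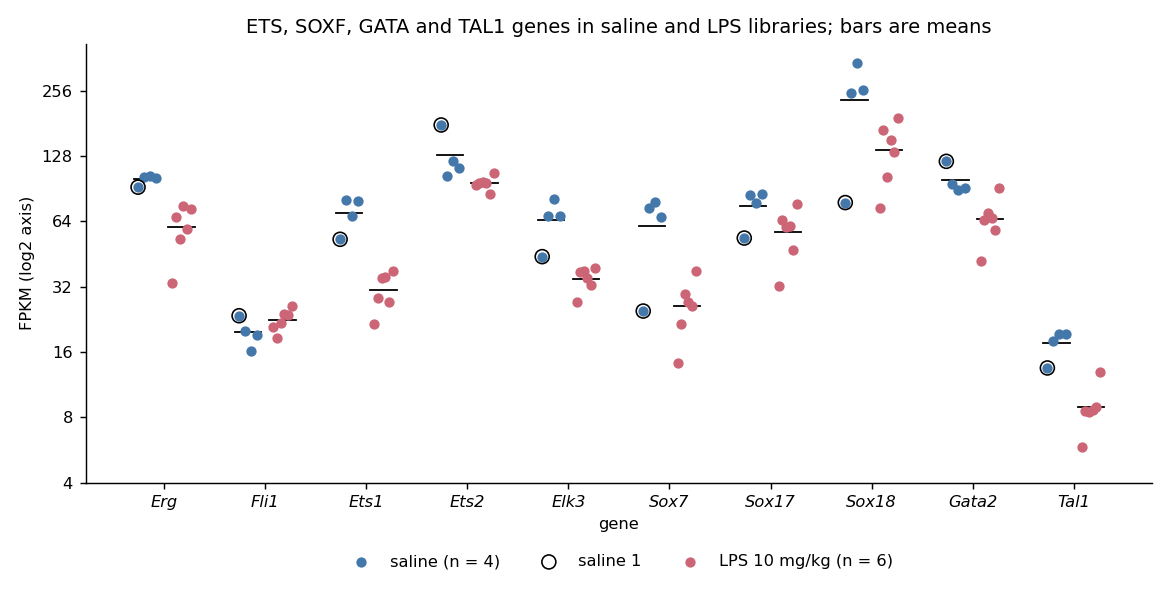
FPKM on a log2 axis of each factor gene in each saline (blue, n = 4) and LPS (red, n = 6) library of the first experiment, with group means as bars and saline 1 ringed. The groups are separate for Erg, Ets1, Elk3 and Tal1, and saline 1 falls among the LPS libraries for Sox7, Sox17 and Sox18.

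The genes of the ETS members come in neighboring pairs. On GRCm38, Fli1 (chr9:32422204-32542861, minus strand) and Ets1 (chr9:32636221-32757820, plus strand) are 93359 bases apart and point away from each other, with no protein-coding gene between them. Erg (chr16:95359169-95586593, minus strand) and Ets2 (chr16:95702075-95721051, plus strand) are arranged in the same way, 115481 bases apart. Elk3 lies at chr10:93247414-93311135 on the minus strand and shares exon sequence with Cdk17 on the opposite strand, which had a mean of 17.1 FPKM, so without a stated strand setting reads of these genes may not be fully separated. Sox7 lies at chr14:63943673-63950732, Sox17 at chr1:4490931-4497354, Sox18 at chr2:181669836-181671640, Gata2 at chr6:88193891-88207032 and Tal1 at chr4:115056426-115071755. Sox17 shares exon sequence with Gm37587 on the opposite strand, a transcript with a mean of 0.151 FPKM.

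RefSeq promoter windows on GRCm38.p6 matched 5 of the 10 members, with 9 start sites. The 250 bases before the start are shown for Erg, Elk3 and Tal1, which all fell and whose saline and LPS libraries did not overlap, as descriptions of what stands before their starts. Erg has 3 such windows, of which the outermost and the innermost are shown, and Tal1 has 2, of which the outermost is shown. Capitals mark the ETS core GGAA, the SOX motif AACAAT and the GATA motif AGATAA. Each was searched on both strands, so GGAA also as TTCC, the SOX motif also as ATTGTT and the GATA motif also as TTATCT.
Erg outermost start, chr16:95586594-95586843, minus strand: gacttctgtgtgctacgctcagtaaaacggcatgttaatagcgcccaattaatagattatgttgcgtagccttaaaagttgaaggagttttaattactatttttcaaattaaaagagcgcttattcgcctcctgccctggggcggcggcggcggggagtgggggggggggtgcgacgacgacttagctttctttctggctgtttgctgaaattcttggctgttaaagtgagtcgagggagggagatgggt
Erg innermost start, chr16:95459349-95459598, minus strand: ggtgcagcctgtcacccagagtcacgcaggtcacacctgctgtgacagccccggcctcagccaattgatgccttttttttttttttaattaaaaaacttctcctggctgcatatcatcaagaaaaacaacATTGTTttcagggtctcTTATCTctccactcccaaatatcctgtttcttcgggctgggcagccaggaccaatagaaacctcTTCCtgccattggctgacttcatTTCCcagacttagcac
Elk3, chr10:93311160-93311409, minus strand: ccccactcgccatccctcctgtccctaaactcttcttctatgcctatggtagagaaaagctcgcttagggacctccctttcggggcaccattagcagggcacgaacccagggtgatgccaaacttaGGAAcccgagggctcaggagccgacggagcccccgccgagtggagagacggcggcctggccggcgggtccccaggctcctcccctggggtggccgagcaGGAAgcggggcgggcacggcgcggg
Tal1, chr4:115056176-115056425, plus strand: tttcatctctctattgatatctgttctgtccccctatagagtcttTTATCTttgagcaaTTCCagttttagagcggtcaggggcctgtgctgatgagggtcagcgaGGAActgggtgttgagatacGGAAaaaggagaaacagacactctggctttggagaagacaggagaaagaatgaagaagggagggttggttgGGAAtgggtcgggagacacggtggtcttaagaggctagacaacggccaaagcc
GGAA stands in 93.4% of all 32851 mouse promoter windows of this length, with a median of 3 matches, so it is the common case. AACAAT stands in 9.42% and AGATAA in 9.99%. The outermost Erg window held 0 GGAA cores and the innermost held 2, with 1 AACAAT and 1 AGATAA match. The Erg window between them, at chr16:95530366-95530615 and not shown, held 4 GGAA cores, 0 AACAAT and 0 AGATAA matches. The Elk3 window held 2 GGAA cores, and the Tal1 window shown held 4 with 1 AGATAA match, while a second Tal1 window, at chr4:115057561-115057810, held 3 GGAA cores and 0 AGATAA matches. The longer ETS motif CCGGAA, found in 12.0% of all windows, was in none of the 4 windows shown. A match is a run of letters and not a measured binding site, and RNA levels do not tell which start was used.

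Among the ETS factors, Ets1 had the largest fall. Ets1 was at 52.9, 80.5, 67.6 and 79.3 FPKM in saline libraries 1 to 4 and at 21.6, 28.4, 35.2, 35.3, 27.3 and 37.9 FPKM in LPS libraries 1 to 6 (median 31.8 FPKM). Even the lowest saline library was above the highest LPS library. The log2 fold change was -1.16 ± 0.18 (SE, adjusted p = 0.000334, limma). Its chromosomal neighbor Fli1 had 23.5, 19.9, 16.2 and 19.1 FPKM in saline and 18.5 to 26.0 FPKM (median 22.7) in LPS. These ranges overlap, and the log2 fold change of 0.18 ± 0.13 (SE) did not pass (adjusted p = 0.237, limma). Its 95% interval was -0.09 to 0.46, and its direction was negative under scaling on total reads (-0.01) and quantile normalization (-0.15).

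Erg was tight in saline, at 92.0, 103, 104 and 101 FPKM, and spread in LPS, at 33.1, 67.1, 53.1, 75.7, 59.3 and 72.7 FPKM. All 6 LPS libraries were below all 4 saline libraries, with LPS 1 far under the rest. Erg had a log2 fold change of -0.77 ± 0.21 (SE, adjusted p = 0.00949, limma), and without LPS 1 it was -0.61 (adjusted p = 0.00412, limma). Elk3 was at 44.0, 67.7, 81.0 and 67.7 FPKM in saline and 27.2 to 39.0 FPKM (median 36.3) in LPS. The groups were again separate, with saline 1 the nearest to the LPS libraries. Elk3 had a log2 fold change of -0.86 ± 0.17 (SE, adjusted p = 0.00157, limma). Ets2, the most abundant ETS member, was at 178, 104, 122 and 113 FPKM in saline and 85.3 to 107 FPKM (median 95.9) in LPS. Saline 1 was the highest library by a wide margin, and saline 2 lay within the LPS range. The log2 fold change of Ets2, -0.40 ± 0.16 (SE), just passed (adjusted p = 0.0494, limma), and without saline 1 it was -0.23 and did not pass (adjusted p = 0.106, limma). With each library left out in turn, Ets2 passed in 2 of 10 fits.

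The SOXF genes shared a split within the saline group. Sox7 was at 24.7, 74.1, 78.9 and 67.0 FPKM in saline and at 14.3, 21.6, 29.6, 27.3, 26.0 and 37.8 FPKM in LPS. Saline 1 lay inside the LPS range and the other 3 saline libraries lay clear of it. The log2 fold change of Sox7 was -1.13 ± 0.33 (SE, adjusted p = 0.0146, limma) with saline 1 and -1.51 ± 0.24 (SE, adjusted p = 0.000597, limma) without it. Sox18 was at 78.1, 249, 343 and 257 FPKM in saline and 73.9, 169, 103, 151, 134 and 191 FPKM in LPS. As for Sox7, saline 1 sat with the LPS libraries, and the other 3 were above all of them. Its log2 fold change of -0.64 ± 0.39 (SE) did not pass (adjusted p = 0.193, limma), and without saline 1 it was -1.09 ± 0.28 (SE) and passed (adjusted p = 0.00788, limma). Without saline 3, the highest library, it was -0.39 (adjusted p = 0.449, limma). Sox17 was at 53.6, 85.1, 78.0 and 85.8 FPKM in saline and 32.1 to 77.3 FPKM (median 60.6) in LPS. Saline 1 was once more within the LPS range. Sox17 had a log2 fold change of -0.42 (95% interval -0.94 to 0.09, adjusted p = 0.144, limma), -0.58 without saline 1 (adjusted p = 0.0574, limma) and -0.27 without LPS 1 (adjusted p = 0.237, limma), so no fall was shown at the threshold in these fits.

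Gata2 had 121, 94.7, 89.0 and 91.4 FPKM in saline and 42.1, 65.2, 69.7, 66.3, 58.6 and 91.0 FPKM in LPS. LPS 6 was within the saline range, and the other 5 LPS libraries were below it. This gave a log2 fold change of -0.61 ± 0.19 (SE, adjusted p = 0.0187, limma). Tal1, the least abundant of the 10, was at 13.5, 17.9, 19.3 and 19.4 FPKM in saline and 5.83, 8.59, 8.44, 8.63, 8.92 and 12.9 FPKM in LPS. The groups did not overlap, with LPS 6 just under saline 1. The log2 fold change was -0.93 ± 0.18 (SE, adjusted p = 0.00133, limma), and the LPS mean was 50.6% of the saline mean.

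The order of the levels was similar in both groups. In saline the means ran from Sox18 (232 ± 111 FPKM, SD, n = 4) through Ets2, Erg, Gata2, Sox17, Ets1, Elk3, Sox7 and Fli1 to Tal1 (17.5 ± 2.75 FPKM, SD, n = 4). Only 2 steps between neighbors in this order were clear of the spread, Gata2 above Sox17 and Sox7 above Fli1. In LPS the order ran Sox18 (137 ± 42.9 FPKM, SD, n = 6), Ets2, Gata2, Erg, Sox17, Elk3, Ets1, Sox7, Fli1 and Tal1 (8.88 ± 2.26 FPKM, SD, n = 6). There, neighbors were separate only for Fli1 above Tal1.

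Ratios of relatives within a library were compared for 6 pairs, with exact two-sided permutation tests adjusted over the 6. Erg was 5.11 times as abundant as Fli1 in saline (3.91 to 6.44 over 4 libraries) and 2.60 times in LPS (1.58 to 3.63 over 6 libraries). The ratios did not overlap between groups, and the difference of -0.97 on the log2 scale had the smallest p this design allows (exact permutation p = 0.00952, adjusted p = 0.0571). Ets1 to Ets2 went from 0.547 to 0.317 (adjusted exact permutation p = 0.0714) and Sox7 to Sox17 from 0.750 to 0.454 (adjusted exact permutation p = 0.0714). Sox7 to Sox18 went from 0.274 to 0.191 (adjusted exact permutation p = 0.0714), Gata2 to Tal1 from 5.66 to 7.38 (adjusted exact permutation p = 0.0914), and Sox17 to Sox18 from 0.365 to 0.422 (adjusted exact permutation p = 0.438). None of the 6 passed 0.05 after adjustment. Without saline 1, 5 of the 6, all but Sox7 to Sox18, had an adjusted exact permutation p of 0.0286, the smallest reached with 3 saline libraries. Bulk ratios mix all cells of a library, and the leukocyte marker sum had a median of 146 FPKM in saline and 1872 FPKM in LPS. The part of other cells in these ratios and in the family shares was not tested.

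As shares of their families, the factors shifted unequally. Of the summed FPKM of the 5 ETS members, Ets1 held a median of 19.1% in saline and 12.6% in LPS, Fli1 5.17% and 9.09%, and Ets2 30.5% and 38.4%. The Fli1 shares did not overlap, at 4.15 to 6.03% in saline and 7.48 to 10.6% in LPS. Of the SOXF sum, Sox18 held 61.9% in saline and 62.8% in LPS, and Sox7 held 16.1% and 12.1%. The SOXF sum itself was a median of 409 FPKM in saline and 223 FPKM in LPS.

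Genes with the most similar pattern were looked for by the root mean square difference of centered log2(FPKM + 1) over the 10 libraries, among 7755 genes. Nearest to Erg were Jup (0.09), Yap1 (0.10) and Fkbp9 (0.10), of which Jup encodes the junction protein plakoglobin and Yap1 a Hippo pathway coactivator. Nearest to Ets1 were Dpysl3 (0.09), Csad (0.12) and Rbfox2 (0.14). Nearest to Elk3 were Rgmb (0.10), Lpcat1 (0.12) and Thsd1 (0.13). Nearest to Tal1 were Abcb1a (0.10), which encodes an efflux pump, Sox13 (0.11) and Syde1 (0.11). These are descriptions over 10 libraries that differ in depth and in the levels of cell type markers.

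Other members of the ETS family were called in both directions. For this and the next lists, the shares of all genes are 23.7% lower and 29.5% higher. Of 20 other ETS genes, 15 were tested, 2 fell, Elk4 and Elf2, and 3 rose, Spi1, Elf4 and Etv6. The median over the 15 was -0.05. Another 2 were called higher, Spic, a relative of PU.1 known from red pulp macrophages (0.108 FPKM in saline, 8.09 FPKM in LPS), and Elf3 (0.229 and 0.728 FPKM), which is named after its values were seen. Both passed the filter of 0.5 FPKM only through the LPS group where they are high, so they are given as values only. Spi1, which encodes the myeloid factor PU.1, was at 9.62 ± 6.89 FPKM (SD, n = 4) in saline and 212 ± 66.5 FPKM (SD, n = 6) in LPS, and rose by 4.46 on the log2 scale (adjusted p = 5.59e-06, limma). Elf4 rose by 1.60 (adjusted p = 0.000221, limma). Etv6 rose by 0.68 (adjusted p = 0.00352, limma). Elk4, a ternary complex factor like Elk3, fell by 0.91 (adjusted p = 6.99e-05, limma) and Elf2 by 0.44 (adjusted p = 0.00857, limma).

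Of 9 other SOX genes, 4 passed the filter on low values. Sox11 fell by 2.06 on the log2 scale, from 12.0 to 2.02 FPKM, Sox4 by 1.62 and Sox13 by 0.93, with adjusted p-values from 7.51e-05 to 0.0027 (limma). Sox12 was at 1.10 FPKM in saline and 0.271 FPKM in LPS, so it passed the filter of 0.5 FPKM through the saline group alone, and its difference of -0.73 is given as a value only. Sox13 was the most abundant of them, at 54.8 ± 7.0 FPKM (SD, n = 4) in saline.

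Of 17 GATA relatives and partners of GATA2 and TAL1, 13 were tested, 7 fell and 2 rose, with a median of -0.55. Lmo2 and Ldb1, which bridge TAL1 to GATA factors, fell by 0.71 (adjusted p = 0.0439, limma) and 0.74 (adjusted p = 0.000291, limma). Gata3 fell by 1.61 (adjusted p = 0.000548, limma) and Gata6 by 1.22 (adjusted p = 0.00165, limma). Lyl1, the closest relative of Tal1 and a gene of blood cells, rose by 2.17 (adjusted p = 4.91e-05, limma), opposite to Tal1. Runx1, a hematopoietic factor, rose by 1.49 (adjusted p = 5.72e-05, limma), from 0.748 to 3.99 FPKM.

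Of 20 genes proposed as targets of these factors, all were tested, 11 fell and 0 rose, with a median of -0.76. The VEGF receptor gene Kdr fell by 1.63 (adjusted p = 0.000662, limma), with 125 ± 43.6 FPKM in saline (SD, n = 4) and 38.7 ± 10.4 FPKM in LPS (SD, n = 6). Arterial genes were among them, with Efnb2 lower by 1.30 (adjusted p = 0.000885, limma) and the Notch ligand gene Dll4 by 1.22 (adjusted p = 0.0184, limma). Tek, which encodes the angiopoietin receptor, fell by 1.20 (adjusted p = 0.00108, limma). Cldn5, the most abundant target, was at 1533 ± 893 FPKM (SD, n = 4) and 1058 ± 442 FPKM (SD, n = 6) and did not pass (adjusted p = 0.331, limma). Cdh5, Tek, Emcn, Pecam1 and Tie1 are in this list and in the endothelial marker list.

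**Figure D2:**
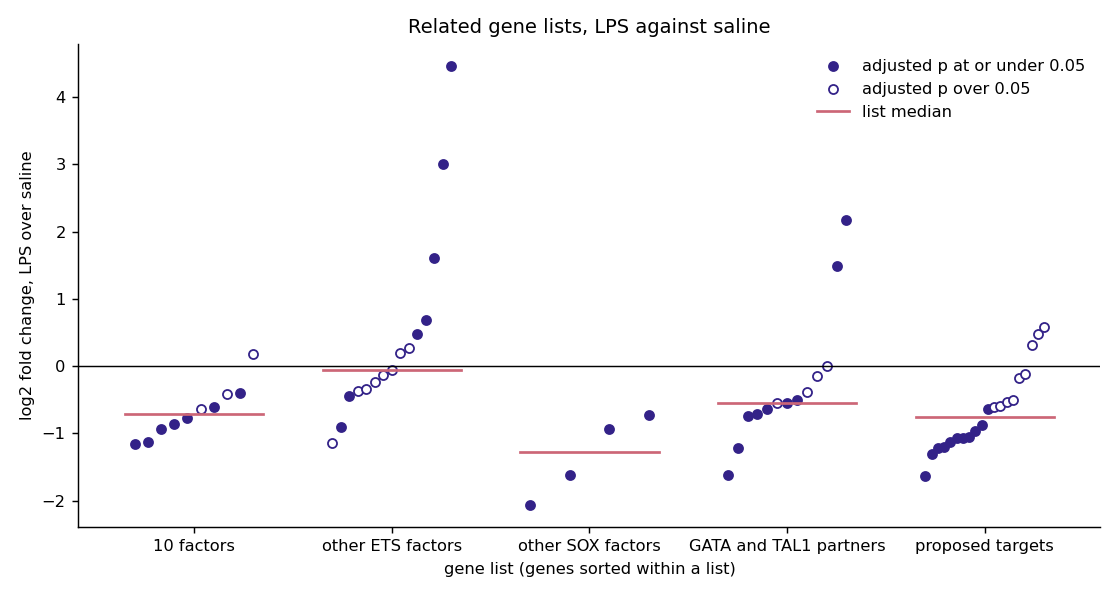
Log2 fold change (LPS over saline) of the 10 factors and of the tested genes of the 4 related lists, sorted within a list, with filled points at an adjusted p at or under 0.05 and red lines at list medians. Spi1 stands highest at 4.46, Sox11 lowest at -2.06, and 17 of the 20 targets are below 0.

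Markers of the endothelium and of several blood cells also differed between saline and LPS. Of 10 endothelial markers, 5 fell and 0 rose, with a median log2 fold change of -0.62, close to the -0.70 of the 10 factors. Their summed level went from a median of 3311 FPKM in saline to 2372 FPKM in LPS, and Cdh5 was the most abundant. Of 5 arterial markers 4 fell and 0 rose, with a median sum of 272 FPKM in saline and 78.2 FPKM in LPS (Gja4 the most abundant). Of 6 leukocyte markers all 6 rose, with a median sum of 146 and 1872 FPKM (Tyrobp the most abundant), and of 8 macrophage markers 6 rose and 1 fell, at 23.7 and 547 FPKM (Csf1r). Of 8 neutrophil markers 7 rose, at 187 and 2587 FPKM (S100a9). No marker of these 5 lists was at 0 in every library.

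The remaining lists also held called genes, where 23.7% of all genes fell and 29.5% rose. Among platelet markers 3 of the 4 tested of 6 rose (33.1 and 72.7 FPKM, Pf4 the most abundant, Gp1bb at 0 in every library), and among erythroid markers 3 of the 4 tested of 6 (13.1 and 44.2 FPKM, Hba-a1). Epithelial markers had 3 of 9 tested falling (1698 and 590 FPKM, Sftpc), fibroblast markers 4 of 6 (59.0 and 30.6 FPKM, Col3a1), lymphocyte markers 3 of 6 (111 and 26.0 FPKM, Cd79a) and mural markers 1 of 7 (41.2 and 52.1 FPKM, Acta2). Of 5 lymphatic markers tested 2 fell and 1 rose (377 and 583 FPKM, Lyve1), and of 2 mast cell and basophil markers 1 was called lower (3.50 and 1.96 FPKM, Mcpt8), Cpa3, which passed the filter only through the saline group. The part of these marker differences in the levels of the factors was not tested by an independent measure of cell composition.

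When libraries were instead scaled so that the mean of the 10 endothelial markers was level, the median difference over all genes moved to 0.46 on the log2 scale and most differences of the factors were smaller. Of the 10 factors 1 then fell and 1 rose, while 7.01% of all genes fell and 43.2% rose. Ets1 remained lower, by 0.58 on the log2 scale (-0.58 ± 0.19, SE, adjusted p = 0.023, limma). Fli1 was higher, at 0.75 ± 0.23 (SE, adjusted p = 0.0146, limma). It was at 0.18 under the main scaling, so it moved in the direction of the common shift of all genes. Erg was at -0.18, Elk3 at -0.28, Tal1 at -0.38, Sox7 at -0.55, Gata2 at -0.03 and Sox18 at -0.05, and Ets2 and Sox17 changed sign, at 0.19 and 0.16, and none of these 8 passed. In the related lists, Sox11 and Sox4 still fell and Sox13 did not pass, and Gata3 and Gata6 still fell. Spi1, Elf4, Etv6, Lyl1 and Runx1 still rose. Elk4, Elf2, Lmo2 and Ldb1 no longer passed, and of the 13 partners tested 2 fell and 2 rose, with a median of 0.03. Of the targets 4 fell (Kdr, Efnb2, Tek and Tie1) and 3 rose (Vcam1, Angpt2 and Emcn), with a median of -0.18. Tek, Tie1 and Emcn are among the 10 markers that set this scaling, so their calls are not independent of it.

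**Figure D3:**
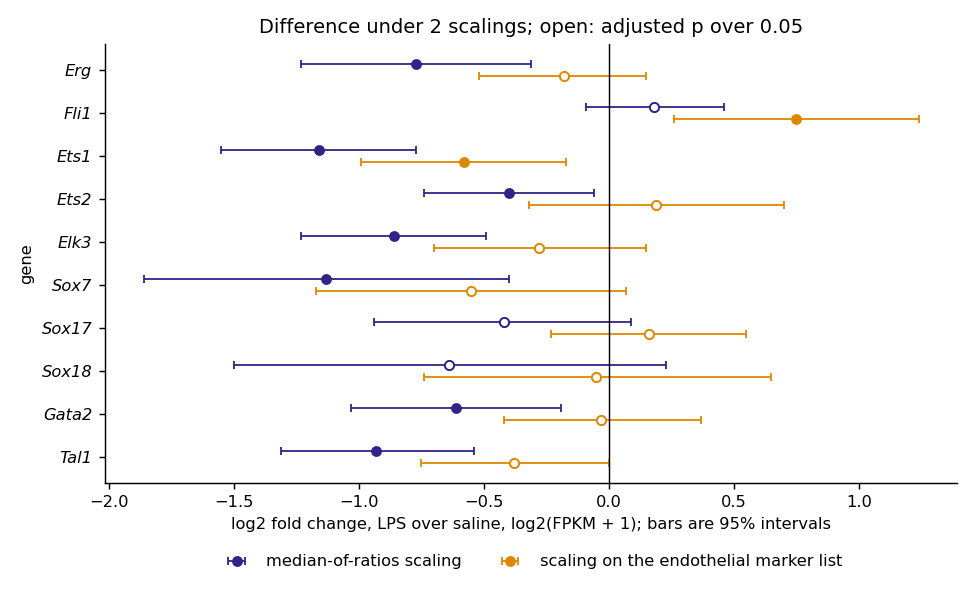
Log2 fold change (LPS over saline) of each factor with its 95% interval, under median-of-ratios scaling (dark) and under scaling on the 10 endothelial markers (orange), with open points for an adjusted p over 0.05. Only Ets1 is below 0 and filled under both, and Fli1 is filled and above 0 only under the second.

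**Figure D4:**
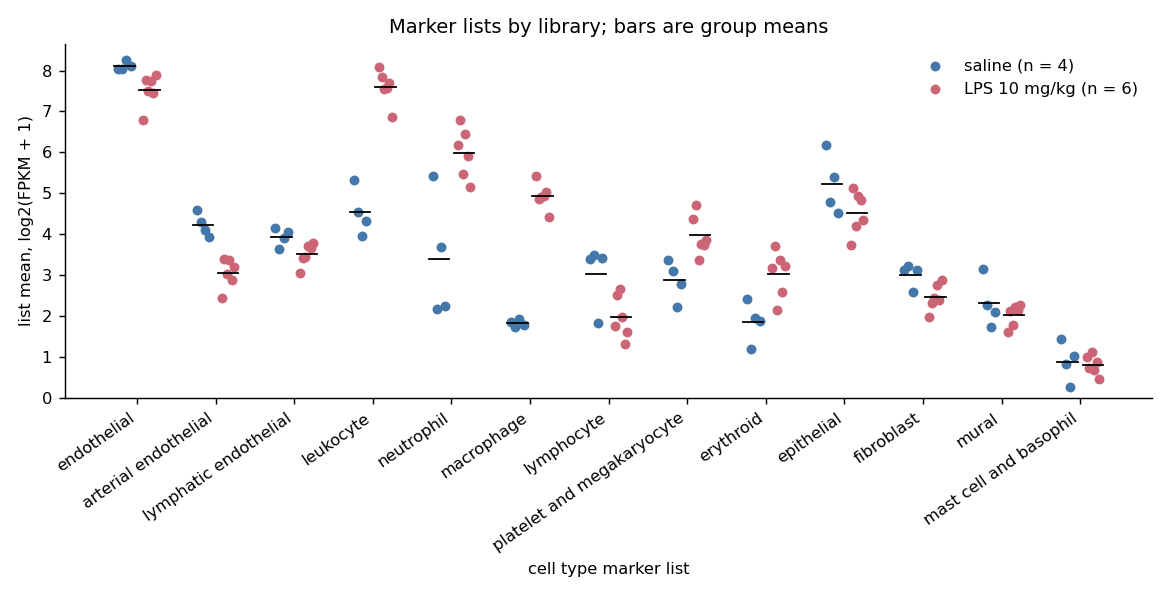
Mean log2(FPKM + 1) of each cell type marker list in each saline (blue, n = 4) and LPS (red, n = 6) library, with group means as bars. The endothelial list is lowest in LPS 1 (6.78). The endothelial and arterial lists are lower and the leukocyte and macrophage lists higher in every LPS library than in every saline library.

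The second experiment asked what loss of endothelial Fgfr1 does under LPS. Fgfr1 itself was at 2.90, 2.91 and 2.60 FPKM in loxP/loxP libraries and at 0.682, 1.41 and 1.15 FPKM in iΔEC/iΔEC libraries, and the groups did not overlap, as their labels have it. In the first experiment it was at 2.82 to 5.52 FPKM in saline and 1.05 to 2.55 FPKM in LPS. Of the 10 factors, 0 passed an adjusted p of 0.05 (limma) between the genotypes, and of all 14945 genes tested 0.0% did. The smallest adjusted p of any gene was 0.742 (limma), Fgfr1 included at 0.962. In this unpaired fit 661 genes, or 4.42%, had an unadjusted p under 0.05 (limma), none of them among the factors.

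The differences of the factors were small, from -0.08 for Sox18 to 0.40 for Gata2 on the log2 scale, with a median of 0.10. The difference of Gata2 was 0.20 without iΔEC/iΔEC 1 and 0.54 without iΔEC/iΔEC 2, and that of Tal1, 0.30, was 0.20 without loxP/loxP 2 and 0.44 without iΔEC/iΔEC 2. For no factor were the groups separate, against 6.02% of all genes in the upward and 4.09% in the downward direction. Gata2 was at 75.2, 59.3 and 62.9 FPKM in loxP/loxP and 114, 70.8 and 80.5 FPKM in iΔEC/iΔEC libraries. Only iΔEC/iΔEC 2 was below the highest control. Without regard to library numbers, the 95% interval of the difference was -0.08 to 0.88 (adjusted p = 0.962, limma). Tal1 was at 12.3, 10.2 and 13.1 FPKM in loxP/loxP and 16.5, 12.0 and 16.2 FPKM in iΔEC/iΔEC libraries. Here too the second mutant library lay in the control range, and the difference of 0.30 had a 95% interval of -0.07 to 0.67. Sox18 varied most, at 264, 235 and 132 FPKM in loxP/loxP and 248, 128 and 217 FPKM in iΔEC/iΔEC libraries. A low library stood in each genotype, and the interval of -0.92 to 0.76 spans a large change in either direction.

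Erg was at 110.0, 89.3 and 67.2 FPKM in loxP/loxP and 108, 81.3 and 90.2 FPKM in iΔEC/iΔEC libraries, a difference of 0.09 (95% interval -0.41 to 0.59). Fli1 was at 29.4, 27.4 and 21.0 FPKM against 35.8, 30.0 and 22.8 FPKM, and its difference was 0.17 (95% interval -0.30 to 0.65). Ets1 was at 50.7, 40.3 and 53.3 FPKM against 53.9, 47.0 and 53.9 FPKM, with a difference of 0.11 (95% interval -0.23 to 0.44). All 3 had overlapping groups, and the intervals leave room for modest changes in both directions. Ets2 (0.18), Elk3 (0.09), Sox7 (0.05) and Sox17 (0.10) were likewise within the spread. With each library left out in turn, the difference ran from 0.03 to 0.34 for Fli1 and from 0.05 to 0.31 for Ets2. All 6 ratios of relatives had an adjusted exact permutation p of 0.9, in a design of 3 against 3 whose smallest exact p is 0.1.

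Libraries of the same number deviated together in this experiment, but the labels do not say what the number marks. The pairs were taken from these same data, and the counts and intervals below depend on them. Within these pairs 6 of the 10 factors were higher in the mutant in 3 of 3 pairs, against 17.8% of all genes. They were Fli1, Ets1, Ets2, Elk3, Gata2 and Tal1. None was lower in 3 of 3, against 12.9% of all genes. Gata2 differed by 0.59, 0.25 and 0.35 on the log2 scale in pairs 1 to 3, and Tal1 by 0.40, 0.21 and 0.29. Ets2 differed by 0.34, 0.20 and 0.00, with 97.4 and 97.6 FPKM in pair 3, and Fli1 by 0.28, 0.13 and 0.12. Ets1 differed by 0.09, 0.22 and 0.02, and Elk3 by 0.14, 0.07 and 0.05. Sox18 went in opposite directions, at -0.09, -0.87 and 0.71. A fit with the pairs as a block also called 0 factors at the adjusted threshold (limma). In that fit the 95% interval was 0.09 to 0.70 for Gata2 (adjusted p = 0.593, limma) and 0.07 to 0.54 for Tal1 (adjusted p = 0.599, limma), both above 0, and the intervals of the other 8 factors held 0. These 2 factors were among 1154 of the 14945 genes tested that had an unadjusted p under 0.05 in the paired fit (limma). No gene passed the adjusted threshold in that fit.

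Endothelial markers lay in the same direction, with 9 of 10 above 0, a median of 0.28 and median sums of 2454 FPKM in loxP/loxP and 3204 FPKM in iΔEC/iΔEC libraries, and 0 of them passed. Of the 20 targets 17 were above 0, with a median of 0.25, and 0 passed. The 5 arterial markers were all below 0 (median -0.32, with sums of 134 and 131 FPKM). All 10 epithelial markers were below 0, with median sums of 1516 and 789 FPKM. So were all 6 leukocyte (758 and 628 FPKM), all 8 macrophage (267 and 243 FPKM) and all 7 lymphocyte markers (73.0 and 46.9 FPKM), and 7 of 8 neutrophil markers (2536 and 1526 FPKM). The groups were separate downward for 2 lymphocyte markers and 1 epithelial marker, against 4.09% of all genes. Upward they were separate for 2 endothelial markers, 1 platelet marker, 1 mural marker and 3 targets, against 6.02% of all genes. Of the tested markers 4 of 5 lymphatic, 4 of 5 platelet and 4 of 5 erythroid genes were above 0, and 4 of 6 fibroblast, 5 of 7 mural and 2 of 2 mast cell and basophil genes were below 0. No marker of these lists passed (limma), and their part in the levels of the factors was not tested. Scaled on the endothelial markers, 8 of the 10 factors were below 0, with Gata2 at 0.14 and Tal1 at 0.05 as the exceptions. This scaling moved the median over all genes from 0.01 to -0.19. The sign of 7 of the 10 factors changed with that common shift, so these sign changes tell nothing about the factors alone.

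**Figure D5:**
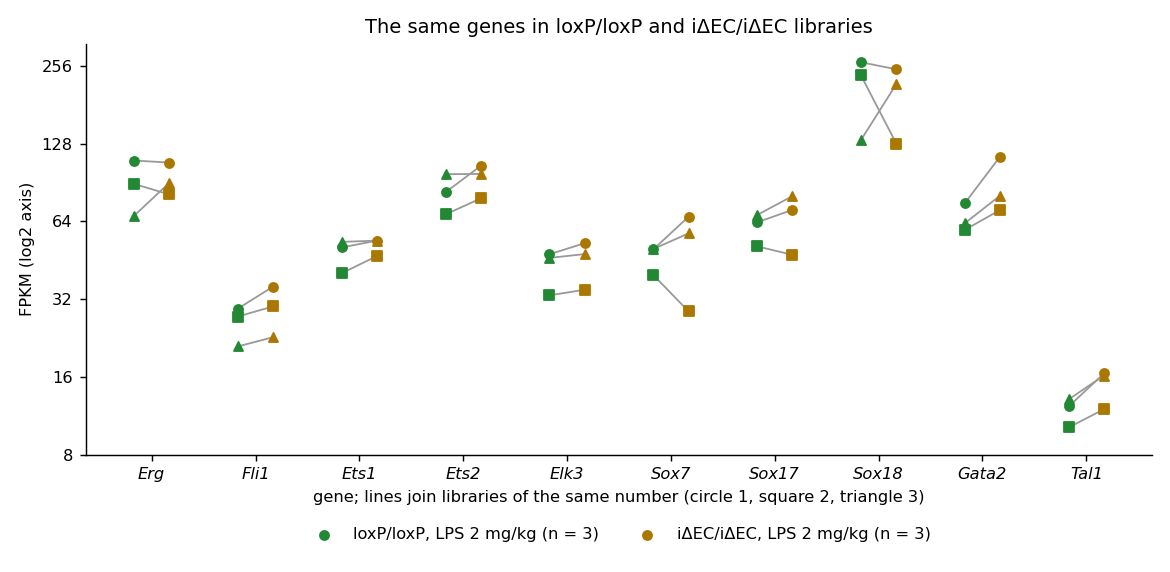
FPKM on a log2 axis of each factor gene in loxP/loxP (green, n = 3) and iΔEC/iΔEC (brown, n = 3) libraries, all given 2 mg/kg LPS, with lines joining libraries of the same number. Lines rise in all 3 pairs for Gata2 and Tal1 and cross for Sox18, and the groups overlap for every gene.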

How the data were processed

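Bulk RNA-seq of lung ECs was deposited as FPKM for 16 libraries. Per the labels, the authors used HISAT2 2.0.5 and featureCounts 1.5.0-p3 on mm10, and strandedness was not given in the sources used here. The deposited FPKM were divided by median-of-ratios factors, which left the first table as it was and moved no library of the second by over 0.182%. The deposited values of the first table were thus already level on that scale, which is not the same as scaling on total reads. Whole reads were recovered for 100.0% of values (tolerance 0.05 reads). log2(FPKM + 1) was fitted with limma 3.58.1 (R 4.3.3, intensity trend) per experiment for genes averaging 0.5 FPKM or more, with Benjamini-Hochberg adjustment and calls at 0.05. Fold changes are on the log2(FPKM + 1) scale, which understates low genes. Single ratios had exact permutation tests (scipy 1.17.1).

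The members and lists were chosen with earlier results of these data known. Named genes were the members, up to 4 called genes a direction per related list, the most abundant gene per marker list, and the 3 likest genes of members with separate groups. Beyond this rule, Elf3 was named after its values were seen, and further targets where they were called under endothelial scaling. Alternatives were another pseudocount (0.1), no filter, deposited FPKM, other scalings, limma-voom on read numbers, a replicate block and leaving out each library. In the first experiment the deposited FPKM equal the main values, so they could only return the same result. The fit was tested on simulated data. In the second experiment the deviations of same-numbered libraries correlated at 0.18 to 0.25 and those of other numbers at -0.14 to -0.04, so the numbers were taken to pair the samples, from the data alone. No replicate pair was a copy, and saline 2 and saline 4 were the most alike. Intervals cover the spread between libraries.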

Additional observations from a re-analysis of the deposited data

Results flagged for a closer look

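Of 46 sets of values in groups of 4 or 6 libraries, 3 held a library far from the others, and chance flags about 1 in 20, or 2.3 of 46. Sox7 in saline 1 was at 4.69 on the log2(FPKM + 1) scale, against 6.09 to 6.32 in the other 3 saline libraries. The fibroblast marker list in saline 3 had a mean of 2.58, against 3.12 to 3.23 in the others. The lymphocyte marker list in saline 3 had a mean of 1.84, against 3.40 to 3.49.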

How the results depend on the processing

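The number of factors called between saline and LPS was 7, and 2 with scaling on the endothelial markers (1 lower, 1 higher). It was 5 to 9 under the other settings and 6 to 7 when each library was left out. Higher and lower calls over all genes numbered 4399 and 3529, and 6440 and 1044 with that scaling, 3473 and 4622 with total reads (median log2 fold change -0.14), and 3570 and 4295 with quantile normalization. With that normalization Sox17 (-0.97, adjusted p = 0.0129, limma) and Sox18 (-1.22, adjusted p = 0.0324, limma) also passed.

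Signs turned as follows, and the cause was not tested. LPS against saline, Fli1 was -0.01 with total reads and -0.15 with quantile normalization, and Ets2 was 0.19 and Sox17 0.16 with endothelial scaling. Between genotypes, endothelial scaling moved the median over all genes to -0.19. It gave Erg -0.17, Fli1 -0.08, Ets1 -0.15, Ets2 -0.08, Elk3 -0.17, Sox7 -0.21 and Sox17 -0.16, and total reads gave Sox7 -0.01. Leaving out each library, the genotype differences ran from -0.09 to 0.25 for Erg (-0.02 also below 0), -0.02 to 0.19 for Ets1, -0.08 to 0.26 for Elk3 (-0.03 also below 0), -0.18 to 0.41 for Sox7 (-0.06 and -0.07 also below 0), -0.05 to 0.32 for Sox17 (-0.02 also below 0) and -0.38 to 0.21 for Sox18 (0.03 and 0.11 also above 0).

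Leaving out each library, the log2 ratio differences after LPS ran from -1.10 to -0.83 for Erg/Fli1, -1.08 to -0.62 for Ets1/Ets2, -0.02 (without saline 3) to 0.51 for Sox17/Sox18, -0.64 to -0.40 for Sox7/Sox18, -0.96 to -0.58 for Sox7/Sox17 and 0.29 to 0.60 for Gata2/Tal1. Erg/Fli1 (-0.96) and Sox7/Sox18 passed without LPS 3. Between genotypes they ran from -0.25 to 0.03 for Erg/Fli1, -0.05 to 0.57 for Sox17/Sox18, -0.09 to 0.49 for Sox7/Sox18 (-0.01 also below 0), -0.22 to 0.10 for Sox7/Sox17 and -0.04 to 0.20 for Gata2/Tal1 (-0.02 also below 0).

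A replicate block on numbers 1 to 4 of saline and LPS, which share only a number (correlations of -0.21 to 0.10), left 5 factors called and 6001 genes against 7928, with Ets2 (-0.38, adjusted p = 0.19, limma) and Gata2 (-0.70, adjusted p = 0.0597, limma) not passing. The block changed no call between genotypes. Each factor had at least 470 reads in every library of the first experiment and at least 735 in the second.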
